A study of Mus musculus with 6 samples.

Results

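The 40 genes described here encode the machinery of glycolysis and of the cellular response to low oxygen, measured by RNA sequencing of whole embryonic mouse hearts (E11.5). They were chosen by name, as the rows of the deposited table whose symbol equals a listed member, and all 40 were found among the 38918 genes of the table. Of these, 25 belong to glycolysis (3 transporters of glucose and lactate, 18 glycolytic enzymes and 4 pyruvate dehydrogenase kinases) and 15 to the hypoxia response (12 responsive genes and 3 subunits of the hypoxia-inducible factors). All 40 passed the filter of a mean of at least 1 FPKM over the 6 libraries.

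Both groups were on a C57/BL6 strain background. The 3 control libraries came from Tie2 flox/wild-type hearts, for which the labels name no Cre. These hearts carry 1 wild-type copy of Tek (the gene of Tie2, a receptor for angiopoietins) beside a floxed one. The 3 conditional knockout libraries came from hearts with the genotype Nfatc1Cre:Tie2 flox/flox, in which both copies of Tek are floxed and the Cre recombinase is made where the endocardial gene Nfatc1 is active. RNA of 18 hearts per genotype was pooled and then divided into the 3 libraries, per the series text, so p-values measure the spread between libraries and not between embryos. The libraries of 1 genotype were not alike, however, as the summed level of 8 liver transcripts was 6.23, 249 and 2.91 FPKM in the conditional knockouts, and how many hearts stand behind each library is unclear. The heart muscle markers were present at high levels in every library, with a summed level of 10 cardiomyocyte genes of 13961 to 21801 FPKM. Tek stood at 22.4, 25.7 and 16.6 FPKM in the controls and at 3.38, 3.13 and 3.13 FPKM in the conditional knockouts.

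Glycolysis splits glucose into pyruvate in the cytosol and yields ATP without oxygen, and lactate dehydrogenase turns pyruvate into lactate so that the pathway can go on. The embryonic heart draws much of its energy from this pathway before it turns to fatty acids after birth. When oxygen is short, the prolyl hydroxylases that mark the alpha subunits of the hypoxia-inducible factors (HIFs) for destruction slow down, and the stabilised alpha subunit pairs with ARNT and binds DNA at hypoxia response elements. Many genes of glycolysis are HIF targets, which is why both sets of genes are set side by side here.

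The hypoxia response element has the core ACGTG or GCGTG, and many members carry it close to their start. The 250 bases before an annotated start were searched on both strands in the RefSeq promoter table (GRCm38.p6), which held 35 of the 40 members with 51 windows. ACGTG was found in 24 of these windows (47.1%), against 16.6% of all 32851 windows, and GCGTG in 28 (54.9%), against 28.2%. Counted by gene, 21 of the 35 members (60.0%) held ACGTG in at least 1 window, against 18.5% of all genes in the table. Among the hypoxia members the count was 9 of 11 genes, and among the glycolysis members it was 12 of 24. Windows of the same gene can overlap and were each counted. The 35 members had 51 windows, where the 27025 genes of the whole table had 32851, so a member had more windows in which to hold a core. The members' windows were also richer in G and C, with a median of 61.6% against 52.4% over all windows. The part of window number and of base composition in these counts was not tested. The letters ACGTG also occur in both directions within CACGTG, the E-box of other factors, and a match is a description of the sequence and not a bound site.

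The sequences below show 5 members that recur in the results, with the 250 bases before the start (RefSeq, GRCm38.p6, 5′ to 3′ on the strand of the gene) and both cores, on either strand, in capitals. Pgk1 and Ldha were the enzymes most raised in control replicate 1 over the other 2 controls, Pdk1 and Bnip3 were higher in all conditional knockouts than in those other 2 controls, and P4ha2 was lowest in control replicate 1.
Pgk1 (chrX:106186850-106187099, plus strand): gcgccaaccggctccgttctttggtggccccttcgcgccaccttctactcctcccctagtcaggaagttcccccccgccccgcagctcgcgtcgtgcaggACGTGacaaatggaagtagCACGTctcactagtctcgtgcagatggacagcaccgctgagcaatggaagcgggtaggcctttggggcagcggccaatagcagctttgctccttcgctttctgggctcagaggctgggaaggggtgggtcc
Ldha (chr7:46845554-46845803, plus strand): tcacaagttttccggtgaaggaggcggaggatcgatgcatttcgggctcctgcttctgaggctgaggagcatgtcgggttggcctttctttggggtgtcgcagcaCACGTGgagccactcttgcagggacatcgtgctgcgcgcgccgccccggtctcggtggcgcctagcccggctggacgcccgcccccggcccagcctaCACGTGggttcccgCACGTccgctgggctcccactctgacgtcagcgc
Pdk1 (chr2:71872974-71873223, plus strand): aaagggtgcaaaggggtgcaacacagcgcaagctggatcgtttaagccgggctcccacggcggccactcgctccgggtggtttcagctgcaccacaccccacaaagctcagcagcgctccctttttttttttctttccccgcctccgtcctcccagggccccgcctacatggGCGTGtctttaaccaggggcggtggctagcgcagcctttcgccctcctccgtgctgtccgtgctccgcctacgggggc
Bnip3 (chr7:138909507-138909756, minus strand): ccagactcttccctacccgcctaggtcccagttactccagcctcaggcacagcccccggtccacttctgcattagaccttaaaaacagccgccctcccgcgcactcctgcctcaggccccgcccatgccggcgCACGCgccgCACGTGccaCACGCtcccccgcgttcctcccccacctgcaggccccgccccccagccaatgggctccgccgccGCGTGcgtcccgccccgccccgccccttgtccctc
P4ha2 (chr11:54100674-54100923, plus strand): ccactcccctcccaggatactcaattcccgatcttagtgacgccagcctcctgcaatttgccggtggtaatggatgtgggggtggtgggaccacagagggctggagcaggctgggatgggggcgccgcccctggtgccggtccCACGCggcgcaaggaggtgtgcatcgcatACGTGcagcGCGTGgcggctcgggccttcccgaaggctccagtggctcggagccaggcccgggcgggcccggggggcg
Pgk1 held 2 ACGTG cores, 1 on each strand. Ldha held 5 ACGTG matches, of which 4 come from 2 CACGTG palindromes that read the same on both strands. Bnip3 held 2 ACGTG matches, both from 1 CACGTG, and 3 GCGTG cores. P4ha2 held 1 ACGTG and 2 GCGTG cores, and Pdk1 a single GCGTG.

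None of the 40 genes differed between the genotypes in the test across all genes. The deposited FPKM values (fragments scaled to transcript length and library total) were analysed as log2(FPKM + 1) with limma over 12988 genes, and each fold change is the mean of the conditional knockouts less that of the controls on this log scale, so low genes are understated. Of the members, 0 passed an adjusted p of 0.05 (limma, Benjamini-Hochberg), where 0.177% of all genes did, 0.0539% on the higher and 0.123% on the lower side. At an unadjusted p under 0.05 there were 3 members, where 6.68% of all genes met this mark. Aldoc was the 1 above the controls (2.31% of all genes) and Pfkm and Epas1 were the 2 below (4.37% of all genes). The adjusted p lay between 0.656 and 0.998, and the fold changes lay between -0.37 for Epas1 and 0.39 for Aldoc. Standard errors ran from 0.09 to 0.28, and the 95% intervals of limma reached from -0.84 to 0.73 over the 40 members.

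The median fold changes of the glycolysis and the hypoxia members were both near 0. The median log2 fold change was -0.05 over the 25 glycolysis members, with 8 above 0 and 17 below, and 0.03 over the 15 hypoxia members, with 10 above and 5 below. Over all genes tested the median was -0.01 and 46.8% lay above 0. Without control replicate 1 the glycolysis median was 0.07, with 15 of 25 members above 0, and the hypoxia median was 0.01, with 9 of 15 above 0. With all 6 libraries rescaled to their total without globin and mitochondrial genes, both medians were above 0, at 0.02 for glycolysis and 0.09 for hypoxia. The sign of the glycolysis median thus turned without control replicate 1 and also with this rescaling. The difference between both sets was not tested.

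**Figure D1:**
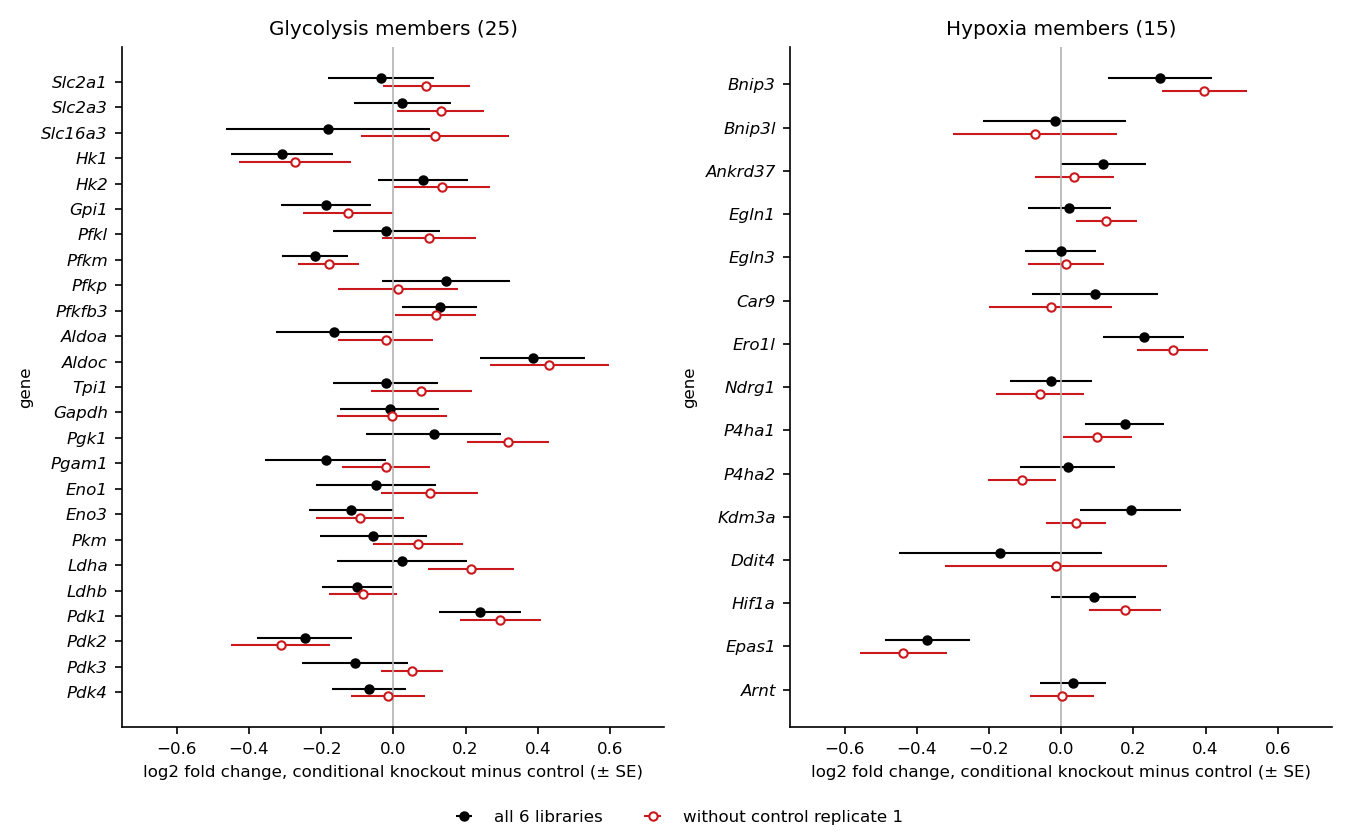
Log2 fold change of each member (x axis, conditional knockout minus control on log2(FPKM + 1), ± SE from limma), with all 6 libraries in black and without control replicate 1 in red. Ldha, Pgk1 and Slc16a3 shift to the right without that library, and Kdm3a shifts to the left.

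The libraries of both groups did not overlap for 4 of the 40 members (10%), where 13.4% of all genes showed this. Aldoc lay higher in the conditional knockouts (5.23% of all genes) and Pfkm, Ldhb and Epas1 lay lower (8.17% of all genes). With another scaling the set changed, as Ldhb then overlapped in all 3 alternatives tried, while Aldoc, Pfkm and Epas1 stayed apart in each of them. When libraries were quantile normalized or rescaled to their total without globin and mitochondrial genes, Pdk1 and Bnip3 joined on the higher side and Hk1 on the lower side. Gpi1 joined on the lower side with the first of these, and Ero1l on the higher side with the second. Without control replicate 1 the count was 13 of 40 (32.5%), 8 higher and 5 lower, against 28.1% of all genes (12.6% higher and 15.5% lower). Both total counts were near the shares over all genes. Without control replicate 1 the 8 higher members lay above their share over all genes, and the 5 lower ones below it. Where that library is the highest, leaving it out can newly separate the groups only on the higher side. With all libraries it was the highest for 17 of the 40 members (42.5%), against 28.4% of all genes. The split into higher and lower members without it therefore cannot show a direction by genotype.

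Control replicate 1 stood apart from the other libraries in the glycolysis genes. It was the highest of the 6 libraries for 16 of the 25 glycolysis members (64.0%), where it was the highest for 28.4% of all genes, and for 1 of the 15 hypoxia members (6.67%). It was the lowest for 6 hypoxia members (40%) and 1 glycolysis member (4.0%), against 26.4% of all genes. Rescaled to the total without globin and mitochondrial genes, it was the highest for 10 glycolysis members (40%), against 15.2% of all genes, and for 0 hypoxia members. It was then the lowest for 7 hypoxia members (46.7%), near the 39.0% of all genes. The summed level of the 18 glycolytic enzymes was 6264 FPKM in control replicate 1, 5100 and 4617 FPKM in the other controls, and 4900, 5532 and 4784 FPKM in the conditional knockouts. Control replicate 1 was the 1 control above all 3 conditional knockouts.

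**Figure D2:**
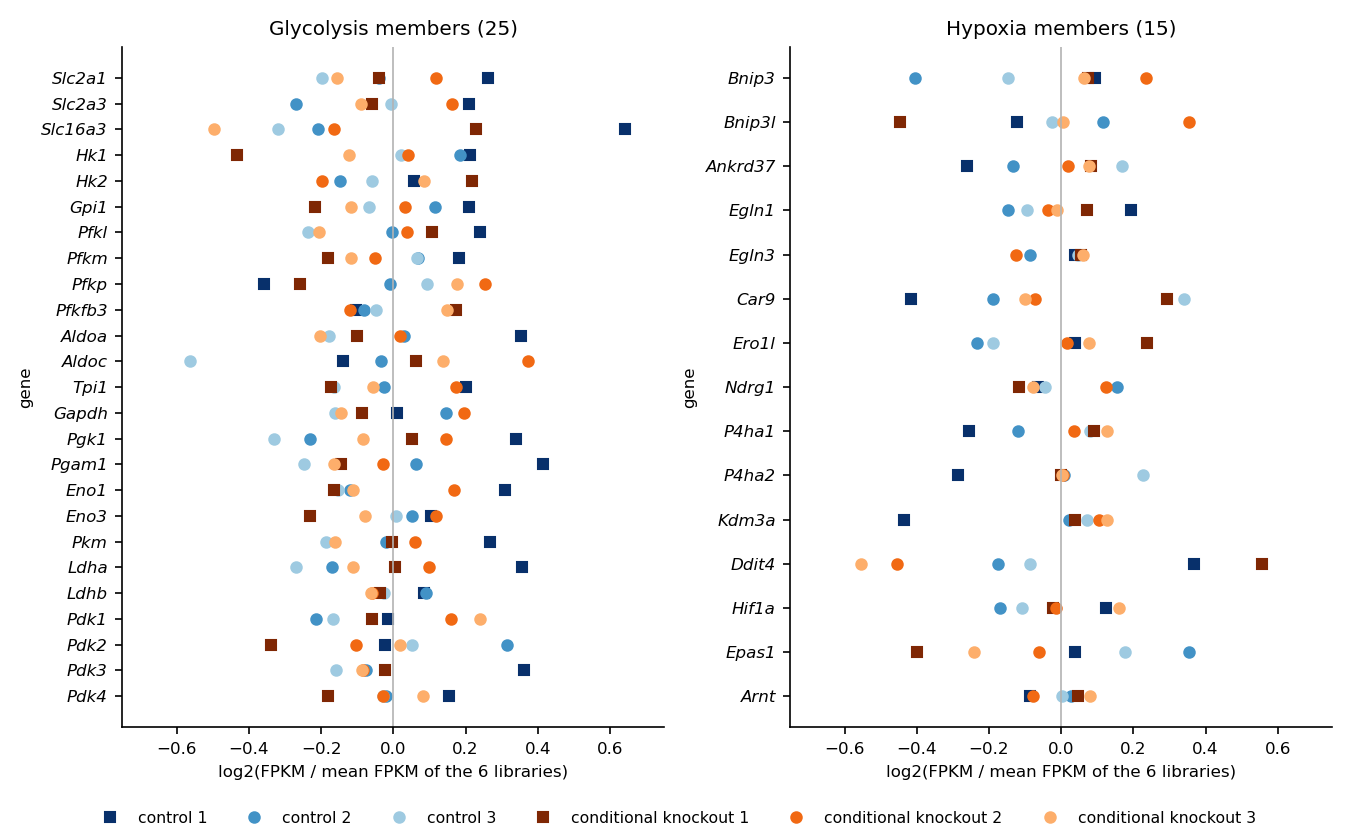
Level of each member in each library as log2 of FPKM over the mean FPKM of the 6 libraries (x axis), with controls in blue, conditional knockouts in orange and replicate 1 of each group as a square. The dark blue square of control replicate 1 lies at the right for 16 of the 25 glycolysis members and at the left for 6 of the 15 hypoxia members.

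Glucose enters the cell through facilitative transporters, and Slc2a1 (GLUT1), the widespread basal transporter, was the main one. It stood at 218, 177 and 158 FPKM in the controls and at 177, 197 and 163 FPKM in the conditional knockouts. The groups overlapped fully, with a log2 fold change of -0.03 ± 0.15 (SE, limma adjusted p = 0.979). Slc2a3 (GLUT3), a high-affinity transporter, ran from 9.71 to 13.5 FPKM over the 6 libraries and made up 5.2% to 6.8% of the summed level of both transporters. Slc16a3 (MCT4), which exports lactate, varied the most of all members, 2.204-fold between its highest and lowest library. It stood at 106, 59.0 and 54.6 FPKM in the controls and at 79.8, 60.8 and 48.3 FPKM in the conditional knockouts. Both replicate 1 libraries were the high ones of their group. The log2 fold change was -0.18 ± 0.28 (SE, adjusted p = 0.912) and 0.12 ± 0.20 without control replicate 1 (adjusted p = 0.896).

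Early steps of the pathway are run by hexokinase, which traps glucose as a phosphate, and phosphofructokinase, the main control point. Hk1, the constitutive hexokinase, stood at 121, 118 and 106 FPKM in the controls and at 77.1, 107 and 95.5 FPKM in the conditional knockouts. The groups overlapped by a narrow margin, and conditional knockout replicate 1 was the low library. That library was the lowest of the 6 for 8 of the 25 glycolysis members (32%), where it was the lowest for 22% of all genes. For Hk1 the log2 fold change was -0.31 ± 0.14 (SE, adjusted p = 0.772). Conditional knockout replicate 1 was also low in the 10 cardiomyocyte markers, of which it was the lowest library for 9, with a sum of 13961 FPKM against 20263 to 21801 FPKM in the other 5 libraries, and in 7 erythroid markers other than globins, with a sum of 241 FPKM against 280 to 424 FPKM. The part of either in the Hk1 value was not tested. Without conditional knockout replicate 1 the Hk1 fold change was the smallest of the fits that left out 1 library, at -0.18. Hk2, the inducible and insulin-responsive hexokinase, stood between 18.7 and 24.99 FPKM and was highest in conditional knockout replicate 1, where its share of both hexokinases was 24.5%, against 14.1% to 19.3% in the other libraries.

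Gpi1, which turns glucose 6-phosphate into fructose 6-phosphate, stood at 446, 418 and 368 FPKM in the controls and at 332, 394 and 356 FPKM in the conditional knockouts. The groups overlapped, and the difference was -0.19 ± 0.12 on the log2 scale (SE, limma adjusted p = 0.809). All 3 phosphofructokinase genes were expressed at similar levels, with means over the 6 libraries of 57.5 FPKM for the liver form Pfkl, 37.4 FPKM for the muscle form Pfkm and 75.5 FPKM for the platelet form Pfkp. Pfkm, on chromosome 15 from 98092589 to 98132451 (GRCm38, protein coding), stood at 42.4, 39.2 and 39.1 FPKM in the controls and at 33.0, 36.1 and 34.5 FPKM in the conditional knockouts. All 3 conditional knockouts were lower than the lowest control. The difference on the log2 scale was -0.22 ± 0.09 (SE, unadjusted p = 0.0491, limma adjusted p = 0.744), and -0.18 ± 0.09 without control replicate 1. The share of Pfkm in the 3 phosphofructokinases was 23.7% ± 1.2 (SD, n = 3) in controls and 20.2% ± 0.70 (SD, n = 3) in conditional knockouts. These shares did not overlap, but they use the same Pfkm values and add no separate measurement. Pfkp split by replicate number and not by genotype, at 58.9 and 63.1 FPKM in the replicate 1 libraries and between 75.1 and 90.1 FPKM in the other 4. It was the 1 glycolysis member for which control replicate 1 was lowest. Pfkfb3, which makes the activator of phosphofructokinase, stood between 6.39 and 7.83 FPKM.

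**Figure D3:**
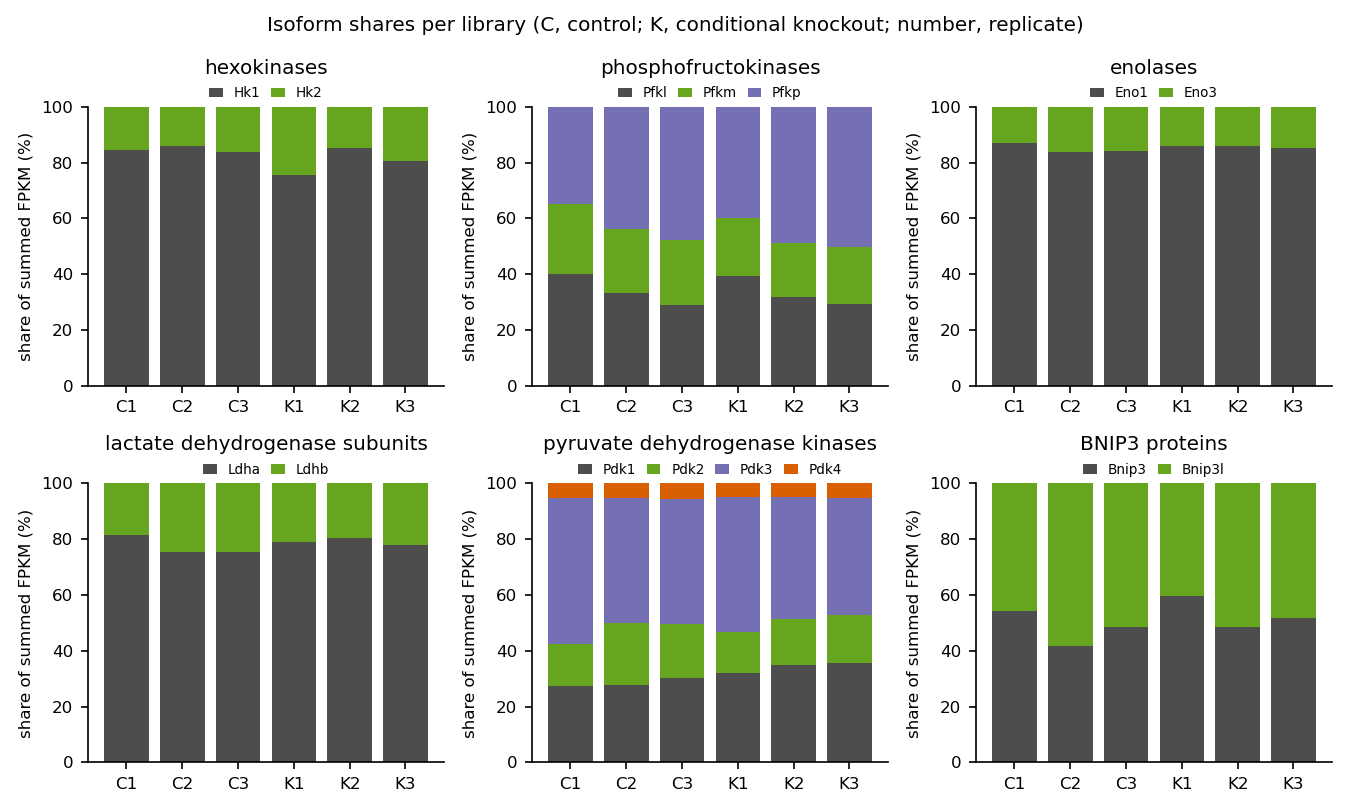
Share of each gene in the summed FPKM of its family (y axis, percent) in each library, with C for control, K for conditional knockout and the replicate number. The muscle phosphofructokinase Pfkm takes a smaller share and Pdk1 a larger share in all 3 conditional knockouts, and Hk2 takes its largest share in K1.

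The 6 members with the highest means, from 394 to 960 FPKM, were Aldoa, Ldha, Tpi1, Pkm, Eno1 and Pgk1. Aldoa, the aldolase of muscle and of most tissues that splits the sugar into 3-carbon units, had the highest mean of all members, 960 FPKM. It stood at 1228, 980 and 849 FPKM in the controls and at 896, 973 and 834 FPKM in the conditional knockouts, with control replicate 1 above all others. Its log2 fold change was -0.16 ± 0.16 (SE, adjusted p = 0.848), and -0.02 ± 0.13 without control replicate 1. Aldoc, the brain form, on chromosome 11 from 78322968 to 78327781, was low and had the largest positive fold change. It stood at 7.57, 8.14 and 5.64 FPKM in the controls and at 8.70, 10.8 and 9.17 FPKM in the conditional knockouts, so the groups did not overlap. Its log2 fold change was 0.39 ± 0.15 (SE, unadjusted p = 0.0317, limma adjusted p = 0.742) with a 95% interval of 0.04 to 0.73. Aldoc made up 0.61% to 1.1% of the summed aldolase level, so the gene with the largest fold change carried little of the aldolase transcript.

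Tpi1 (triose phosphate isomerase), Eno1 (the widespread enolase) and Pkm (pyruvate kinase) had means of 602, 523 and 597 FPKM. Their log2 fold changes were -0.02, -0.05 and -0.06, and 0.08, 0.10 and 0.07 without control replicate 1, with an adjusted p of 0.86 to 0.899 in that fit. Pgam1 (phosphoglycerate mutase) stood at 125, 98.2 and 79.2 FPKM in the controls and between 84.0 and 92.2 FPKM in the conditional knockouts. Eno3, the muscle enolase, stood between 75.9 and 96.6 FPKM, with conditional knockout replicate 1 lowest, and took 12.9% to 16.1% of the summed enolase level. Gapdh, often used as a reference transcript, averaged 208 ± 22.2 FPKM over the controls (SD, n = 3) and 207 ± 26.9 FPKM over the conditional knockouts (SD, n = 3). The log2 difference was -0.01 ± 0.14 (SE). On this per-length scale Gapdh lay below Tpi1 and Pgk1, its neighbours in the pathway. Several of these enzymes have many processed pseudogenes, and the sources used here do not say how reads that match more than 1 gene were counted, so their absolute levels are uncertain.

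Pgk1, phosphoglycerate kinase, which makes the first ATP gained by the pathway, was the enzyme most raised in control replicate 1. The gene lies on chromosome X from 106187100 to 106203699. It stood at 499, 336 and 314 FPKM in the controls and at 409, 436 and 372 FPKM in the conditional knockouts, so that control replicate 1 lay above and the other 2 controls below all 3 conditional knockouts. On the log2 scale the difference was 0.11 ± 0.19 (SE, limma adjusted p = 0.923) with all libraries and 0.32 ± 0.11 (SE, unadjusted p = 0.0314, limma adjusted p = 0.639) without control replicate 1. Ldha, the lactate dehydrogenase subunit that favours lactate formation, had the same order of libraries. It stood at 1041, 723 and 675 FPKM in the controls and at 816, 870 and 751 FPKM in the conditional knockouts. The log2 difference moved from 0.02 ± 0.18 (SE, limma adjusted p = 0.99) to 0.22 ± 0.12 without control replicate 1 (limma adjusted p = 0.70). Control replicate 1 held 1.49 times the mean of the other 2 controls for Ldha, 1.54 times for Pgk1, 1.41 times for Pgam1, 1.36 times for Eno1 and 1.87 times for Slc16a3.

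Ldhb, the subunit that favours the use of lactate and is typical of heart muscle, was the steadiest of the enzymes, 1.11-fold between its extremes. It stood at 237, 238 and 219 FPKM in the controls and at 218, 214 and 214 FPKM in the conditional knockouts. The groups did not overlap, but the gap between the lowest control and the highest conditional knockout was under 2 FPKM, and the log2 fold change was -0.10 ± 0.10 (SE, adjusted p = 0.845). Ldha made up 81.5% of both subunits in control replicate 1, 75.2% and 75.5% in the other controls and 77.8% to 80.3% in the conditional knockouts.

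The pyruvate dehydrogenase kinases keep pyruvate from being oxidised in the mitochondrion by switching off pyruvate dehydrogenase. Pdk1, the HIF-responsive kinase, stood at 42.8, 37.3 and 38.6 FPKM in the controls and at 41.5, 48.3 and 51.1 FPKM in the conditional knockouts. The lowest conditional knockout lay just below the highest control. The log2 fold change was 0.24 ± 0.11 (SE, adjusted p = 0.772), and 0.30 ± 0.11 (SE, unadjusted p = 0.0378, limma adjusted p = 0.665) without control replicate 1. Pdk2 lay on the other side, at 23.7, 29.9 and 24.97 FPKM in the controls and at 19.0, 22.4 and 24.4 FPKM in the conditional knockouts, with a log2 fold change of -0.25 ± 0.13 (SE, limma adjusted p = 0.789). The share of Pdk1 among the 4 kinases was 28.4% ± 1.6 (SD, n = 3) in controls and 34.2% ± 1.9 (SD, n = 3) in conditional knockouts, with the ranges 27.4% to 30.2% and 32.0% to 35.7%. Pdk3 was the most abundant kinase, at 82.0 FPKM in control replicate 1 and 57.2 to 62.8 FPKM in the other 5 libraries, and Pdk4, the kinase tied to fatty acid use, stood between 6.29 and 7.94 FPKM.

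**Figure D4:**
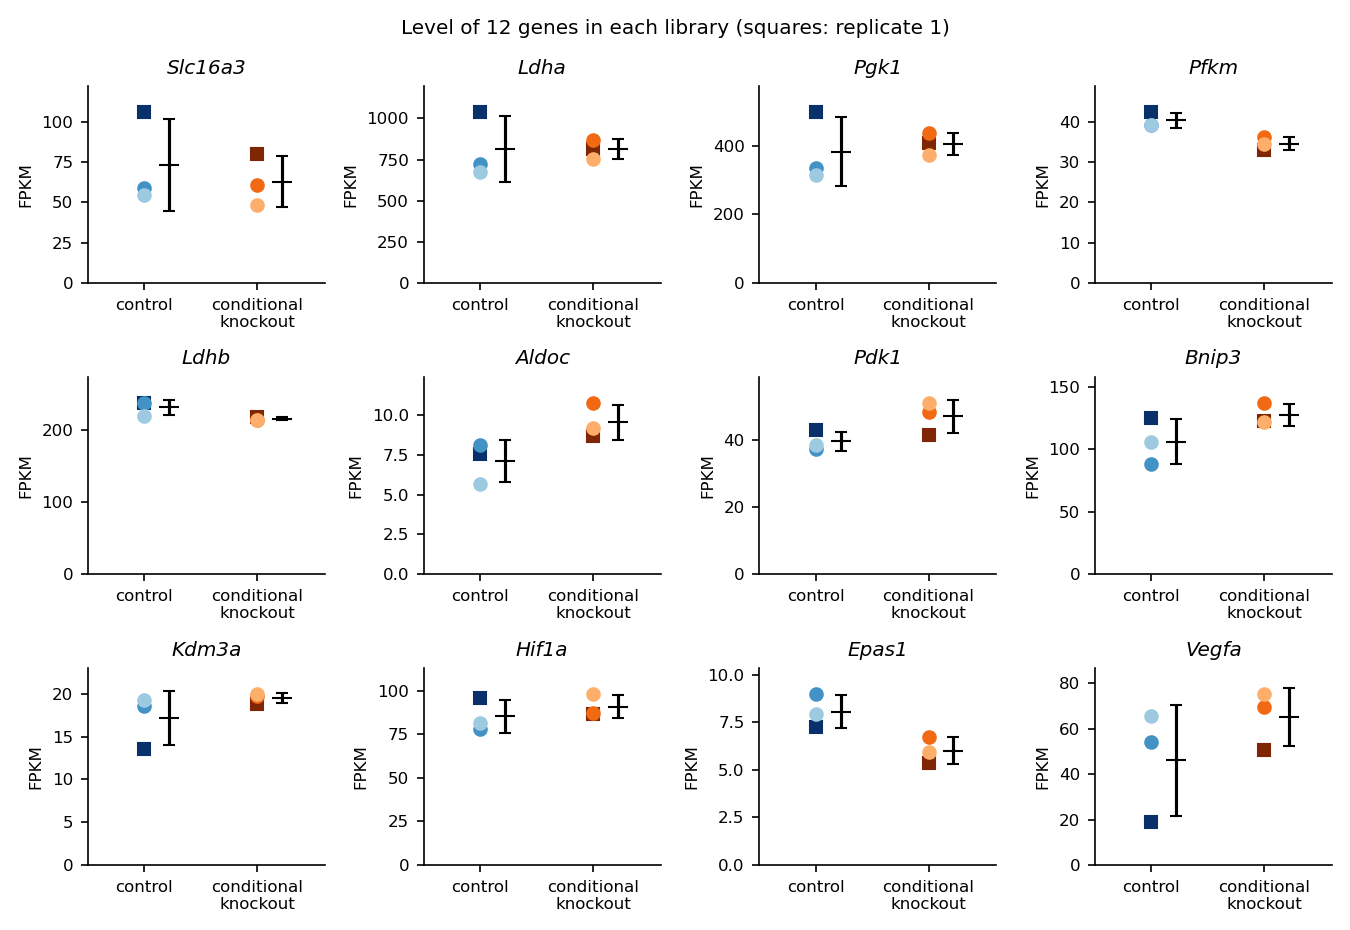
FPKM of 12 genes in each library (y axis from 0), with controls in blue, conditional knockouts in orange, replicate 1 as a square and the mean ± SD of 3 libraries in black. Slc16a3, Ldha and Pgk1 are highest and Kdm3a and Vegfa lowest in control replicate 1, while Pfkm, Ldhb, Aldoc and Epas1 do not overlap between the groups.

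The HIF subunits did not pass the test either. Hif1a, the widely expressed alpha subunit, stood at 96.0, 78.4 and 81.7 FPKM in the controls and at 86.7, 87.2 and 98.4 FPKM in the conditional knockouts (log2 fold change 0.09 ± 0.12, SE, adjusted p = 0.893). Its protein is controlled mainly through stability, which transcript levels do not show. Arnt, the constant partner, was steady between 18.8 and 21.1 FPKM. Epas1, which encodes the alpha subunit HIF-2alpha, prominent in endothelium, had the largest negative fold change of the 40 members. The gene lies on chromosome 17 from 86753700 to 86833410. It stood at 7.24, 9.01 and 7.97 FPKM in the controls and at 5.35, 6.75 and 5.97 FPKM in the conditional knockouts, without overlap. Its log2 fold change was -0.37 ± 0.12 (SE, unadjusted p = 0.0161, limma adjusted p = 0.656) with a 95% interval of -0.65 to -0.09, and -0.44 ± 0.12 without control replicate 1 (adjusted p = 0.51).

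Most endothelial and endocardial markers differed between the groups in the same direction as Epas1. Of 10 such markers, 8 were lower in every conditional knockout than in every control (8.17% of all genes), and 2 of the 10, Npr3 and Plvap, passed the test on the lower side (0.123% of all genes). Emcn and Erg overlapped between the groups, with log2 fold changes of 0.08 and -0.18. Their summed level ran from 348 to 375 FPKM over the controls and from 237 to 266 FPKM over the conditional knockouts, and none was at 0 in a library. In whole hearts, fewer cells of a type and less RNA per cell cannot be told apart. The part of the endothelial markers in the Epas1 value was not tested.

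The oxygen-sensing hydroxylases that act on the HIF alpha subunits overlapped between the groups. Egln1 (PHD2), the main one, stood at 35.9, 28.3 and 29.4 FPKM in the controls and at 33.0, 30.7 and 31.1 FPKM in the conditional knockouts, with a log2 fold change of 0.02 ± 0.11 (SE). It was the only hypoxia member highest in control replicate 1. Egln3 (PHD3) stood between 4.52 and 5.14 FPKM, with means of 4.93 FPKM in both groups. Egln2 (PHD1), from the list of other hypoxia pathway genes and named after its values were seen, spread more, at 28.3, 22.4 and 18.8 FPKM in the controls and at 22.3, 19.5 and 15.1 FPKM in the conditional knockouts.

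Bnip3, a mitochondrial protein that promotes the removal of mitochondria, was the hypoxia gene with the largest positive fold change. It stood at 124, 88.1 and 105 FPKM in the controls and at 123, 137 and 122 FPKM in the conditional knockouts. Control replicate 1 lay within the range of the conditional knockouts and the other 2 controls lay below them. The log2 fold change was 0.27 ± 0.14 (SE, adjusted p = 0.778), and 0.40 ± 0.12 (SE, unadjusted p = 0.0146, limma adjusted p = 0.583) without control replicate 1. Ero1l, an oxidase of the endoplasmic reticulum, had a similar pattern, at 25.5, 21.1 and 21.7 FPKM in the controls and 29.2, 25.1 and 26.2 FPKM in the conditional knockouts. Its log2 fold change was 0.23 ± 0.11 with all libraries and 0.31 ± 0.10 without control replicate 1 (SE, unadjusted p = 0.0189, limma adjusted p = 0.595).

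At an unadjusted p under 0.05 without control replicate 1 there were 6 members, where 7.45% of all genes met this mark. Aldoc, Pgk1, Pdk1, Bnip3 and Ero1l lay above the controls (2.53% of all genes) and Epas1 below (4.92%). Of the 40 members, 0 passed the adjusted threshold of limma in that fit, where 0.138% of all genes did, 0.0691% on each side. The smallest adjusted p was 0.51. The unadjusted mark was met by 3 members with all 6 libraries, and by 1 to 3 members when any other single library was left out.

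Bnip3l (NIX), which clears mitochondria from maturing red cells, followed single libraries and not the genotype. It stood at 105, 123 and 112 FPKM in the controls and at 83.5, 146 and 114 FPKM in the conditional knockouts. Conditional knockout replicates 1 and 2 were the lowest and the highest of the 6. The 7 erythroid markers other than globins, summed, were also lowest in conditional knockout replicate 1 (241 FPKM) and highest in control replicate 2 (424 FPKM) and conditional knockout replicate 2 (412 FPKM), and none was at 0. Their sum was 357 FPKM in control replicate 1 and 280 FPKM in control replicate 3, the reverse of the order of these libraries for Bnip3l. Of the globins, Hba-x and Hbb-y were listed at 0 in all 3 controls. In the conditional knockouts they stood at 11128, 18708 and 13568 FPKM (Hba-x) and at 17557, 23965 and 18968 FPKM (Hbb-y). The part of red cells in the Bnip3l value was not tested.

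Some hypoxia genes were low in control replicate 1, which was the lowest library for 40% of the hypoxia members and 26.4% of all genes. Rescaled without globin and mitochondrial genes, these shares were 46.7% and 39.0%, so the low values are not particular to hypoxia genes. Kdm3a, a histone demethylase, stood at 13.6, 18.6 and 19.3 FPKM in the controls and at 18.9, 19.7 and 20.0 FPKM in the conditional knockouts. P4ha1 and P4ha2, the prolyl hydroxylase subunits that stabilise collagen, stood in that library at 23.6 and 15.2 FPKM. In the other 5 libraries P4ha1 lay between 25.9 and 30.7 FPKM and P4ha2 between 18.5 and 21.7 FPKM. Car9, a carbonic anhydrase of the cell surface, ran from 2.36 FPKM in control replicate 1 to 3.99 FPKM in control replicate 3. Ankrd37 was also lowest in control replicate 1, at 5.56 FPKM, and above 6 FPKM in the others. Ddit4 (REDD1), an inhibitor of mTOR signalling that also answers to stress, was high in both replicate 1 libraries, at 16.5 and 18.8 FPKM, and between 8.69 and 12.03 FPKM in the other 4. Ndrg1 was low and steady, between 2.82 and 3.40 FPKM.

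No further gene of either pathway list passed the test. Of 27 other hypoxia pathway genes, all tested, 0 passed the threshold of limma in either direction, with a median log2 fold change of 0.03. At an unadjusted p under 0.05, 4 lay higher and 1 lower, where 2.31% and 4.37% of all genes did. Tfrc, the transferrin receptor that brings iron into cells, stood at 32.5, 29.0 and 36.4 FPKM in the controls and at 47.2, 47.6 and 41.5 FPKM in the conditional knockouts, with a log2 fold change of 0.47 ± 0.12 (SE, unadjusted p = 0.00491, limma adjusted p = 0.425). Stc2, Plod2 and Igfbp3 also lay higher in every conditional knockout, with log2 fold changes of 0.52, 0.35 and 0.44, and Hif3a lower, at -0.24 (limma adjusted p of 0.585 to 0.742). These 5, 4 higher and 1 lower, were the genes of the 27 whose groups did not overlap, where 5.23% of all genes were separated on the higher and 8.17% on the lower side, and apart from Stc2 they were chosen after their values were seen. Vegfa, the vascular growth factor and a known HIF target, stood at 18.8, 54.1 and 65.5 FPKM in the controls and at 50.7, 69.3 and 75.3 FPKM in the conditional knockouts. In control replicate 1 it held 0.31 times the mean of the other controls, while Pgk1 and Ldha, also HIF targets, were high there. Among the hypoxia members this ratio lay on both sides of the other controls, at 1.29 for Bnip3 and 0.72 for Kdm3a. The cause of these differences was not tested. Of 24 further genes of glycolysis and pyruvate handling found in the table, 17 were tested and 0 passed, with a median of -0.04.

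Each library was then set against the other 2 of its group. Over the glycolysis members the median log2 ratio was 0.18 for control replicate 1, -0.06 and -0.24 for control replicates 2 and 3, and -0.09, 0.15 and -0.07 for conditional knockout replicates 1, 2 and 3. Over the hypoxia members it lay between -0.10 and 0.01, and over all genes tested between -0.02 and 0.02. Control replicate 1 and conditional knockout replicate 2 were thus the high libraries of their groups for glycolysis. They were also the high libraries of their groups for 8 liver transcripts, whose summed level was 92.2 and 249 FPKM in them, 23.5 and 28.6 FPKM in the other controls and 6.23 and 2.91 FPKM in the other conditional knockouts. In control replicate 1 the cardiomyocyte markers had a median ratio of -0.22, the immediate early genes one of 0.13, and the erythroid markers other than globins one of 0.19. In conditional knockout replicate 2 these ratios were 0.29, 0.07 and 0.57, in the same order. Among the controls, the erythroid ratio was highest in control replicate 2, at 0.36. For control replicate 1 the ratio was -0.27 over the cushion mesenchyme markers and -0.18 over the macrophage markers. It was -0.08 over the epicardial and -0.07 over the endothelial and endocardial markers. For conditional knockout replicate 2 these were -0.003, 0.09, 0.01 and 0.11, in the same order. The part of these in the glycolysis values was not tested.

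**Figure D5:**
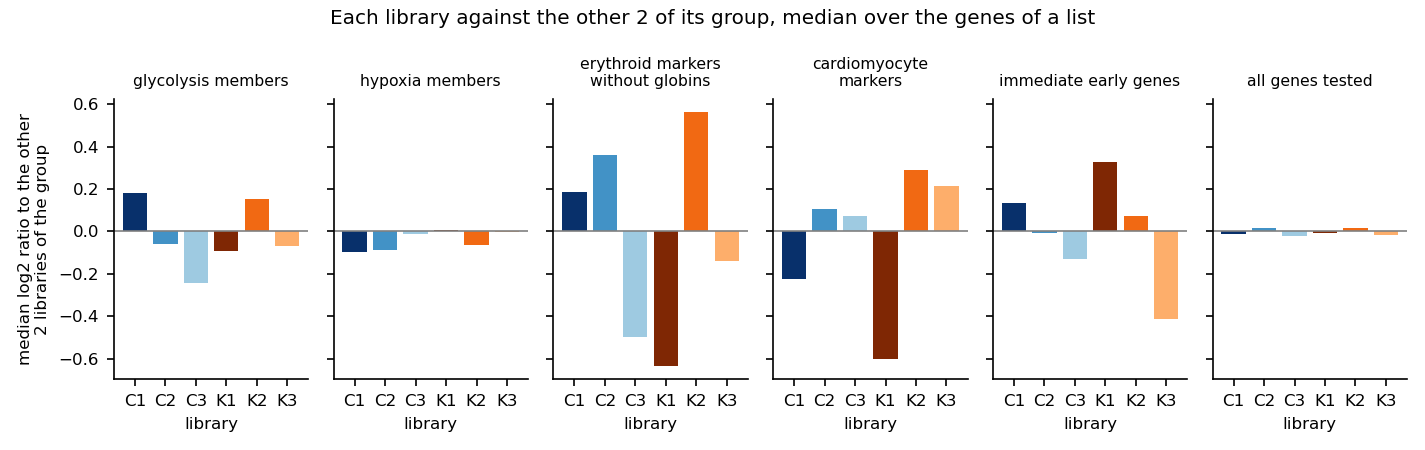
Median log2 ratio of each library to the mean of the other 2 libraries of its group (y axis) over the genes of 6 lists, with C for control, K for conditional knockout and the replicate number. Glycolysis members are highest in C1 and K2 and lowest in C3, hypoxia members stay close to 0, and erythroid and cardiomyocyte markers are lowest in K1.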

How the data were processed

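The deposited table holds FPKM values that the authors computed for 38918 genes in 6 libraries. Per the submitters' processing notes the tools were TopHat2 (2.0.9), Cufflinks (2.2.1), HTSeq and Cuffdiff, listed without their roles, and the genome was mm10. Annotation release, strandedness and handling of multiply matching reads: not given in the sources used here. FPKM divides by a library total, so abundant transcripts such as globins can shift all other genes.

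Read counts are not in the values, so depth is unknown. Among genes under 0.3 FPKM, 4.8% to 10.7% lay at 1 modal ratio (windows of 0.02 on the log2 scale) between pairs without a replicate 1 library and 1.14% to 2.28% between the 9 other pairs, so both replicate 1 libraries were set aside in an alternative.

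Values were tested as log2(FPKM + 1) for the 12988 genes that averaged 1 FPKM or more, with limma 3.58.1 in R 4.3.3 (intensity trend, no block), Benjamini-Hochberg adjustment over all genes and a threshold of 0.05. All 6 libraries shared 1 fit with 4 residual and 3.33 prior degrees of freedom. Alternatives changed the pseudocount, filter, scaling, trend, block and libraries. The members and lists were chosen with earlier results of these data known. All members are named, and of other pathway genes those that passed, Vegfa, and those with separated groups and a log2 fold change of at least 0.5 in size. Tfrc, Plod2, Igfbp3 and Hif3a were named after their values were seen. Sums, shares and library ranks carry no test. Gene positions are from GENCODE release M21 (GRCm38), in which 37607 identifiers were found.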

Additional observations from a re-analysis of the deposited data

How the results depend on the processing

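No member passed the threshold in any of the 16 alternatives, where the smallest adjusted p of a member was 0.276 (limma). The members called were 0 in each, and of 637 member fold changes recomputed 572 kept their side of 0 and 65, in 21 genes with a log2 fold change of at most 0.18 in size, did not. The cause was not tested. Among all genes, 23 were called, 14 with no filter and 10 to 18 without any 1 library. The numbers 1 to 3 are shared by both groups. Over the tested genes, deviations of same-numbered libraries correlated at 0.19, 0.03 and 0.23 for replicates 1, 2 and 3. For replicates 1 and 3 these were the highest correlations with any library of the other group. Control replicate 2 correlated better with conditional knockout replicate 3 (0.06). The main fit did not take same-numbered libraries as pairs, and what the shared numbers stand for was not tested. With a replicate block 17 genes and 0 members were called.

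The hypoxia median was 0.0944 when rescaled without globin and mitochondrial genes and 0.0141 to 0.0775 without any 1 library. The glycolysis median was -0.0477, but 0.0165 with that rescaling, 0.046 in replicates 2 and 3 only and -0.134 to 0.0683 without any 1 library. Members with separated groups, a count added after seeing the data, numbered 4 (13.4% of all genes), then 7 with quantile normalization (17.5% of members, 13.4% of all genes), 7 when rescaled without globin and mitochondrial genes (17.5% and 12.1%), 17 in replicates 2 and 3 only (42.5% and 46.0%) and 4 to 14 without any 1 library. They were 12 without control replicate 3 (27.5% of all genes), 8 without conditional knockout replicate 1 (27.2%) and 14 without conditional knockout replicate 2 (35.0% of members, 24.3% of all genes). Members highest in control replicate 1, also added then, numbered 17, and 10 when rescaled without globin and mitochondrial genes.

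In replicates 2 and 3 only, the log2 fold changes that changed sign were -0.01 for Arnt, 0.13 for Bnip3l, -0.13 for Car9, 0.17 for Eno1, 0.03 for Gapdh, -0.11 for P4ha2, 0.03 for Pdk3, 0.05 for Pdk4, 0.04 for Pfkl, 0.05 for Pkm, 0.10 for Slc2a1 and 0.15 for Tpi1. With quantile normalization they were 0.03 for Bnip3l, 0.04 for Gapdh, 0.03 for Pfkl and 0.02 for Tpi1, and with median-of-ratios scaling 0.0024 for Bnip3l, 0.02 for Egln3, 0.01 for Gapdh and 0.0012 for Pfkl. Rescaled without globin and mitochondrial genes they were 0.05 for Bnip3l, Egln3 and Gapdh, 0.02 for Eno1 and Ndrg1, 0.04 for Pfkl and Tpi1, 0.01 for Pkm and 0.03 for Slc2a1. Without any 1 library the values ran from -0.21 to 0.19 for Bnip3l, -0.03 to 0.26 for Car9, -0.50 to 0.02 for Ddit4, -0.04 to 0.12 for Egln1, -0.04 to 0.05 for Egln3, -0.15 to 0.10 for Eno1, -0.11 to 0.06 for Gapdh, -0.01 to 0.19 for Hk2, -0.10 to 0.22 for Ldha, -0.08 to 0.02 for Ndrg1, -0.11 to 0.13 for P4ha2, -0.20 to 0.05 for Pdk3, -0.13 to 0.10 for Pfkl, -0.02 to 0.32 for Pgk1, -0.16 to 0.07 for Pkm, -0.36 to 0.12 for Slc16a3, -0.14 to 0.09 for Slc2a1, -0.09 to 0.13 for Slc2a3 and -0.12 to 0.08 for Tpi1.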
